A study of Paeonia lactiflora with 8 samples.

Results

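The AP2/ERF transcription factors of herbaceous peony (Paeonia lactiflora) were found by gene symbol, as every assembled gene whose name belonged to the ERF, EREBP, RAP2, DREB, CRF, TINY, ABR1, AP2, ANT, AIL, BBM, TOE, PTI or RAV series. Symbols of this form that were described as peptide chain release factors, 3 IDs in all, were left out. The search found 80 members among 30177 assembled genes, of which 7 were of the AP2 type, 33 of the DREB type and 40 of the ERF type, and no member had a RAV name. The members carried 52 symbols, 17 of them shared by more than 1 ID, and 69 were described in the deposited table as EREBP-like factors. Poly(A) RNA had been sequenced in 8 libraries, 2 biological replicates of each of 4 organs: root, leaf and flower sampled at blossom, and fruit sampled when young. Neither a cultivar nor a treatment was named for any group, and the labels did not say whether a replicate was 1 plant or a pool. The organs had been chosen because they accumulate different amounts of paeoniflorin, a monoterpene glycoside of peony. Because fruit alone came from the young fruit period, organ and period cannot be told apart in any comparison with fruit.

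AP2/ERF proteins are plant transcription factors that share the AP2 DNA-binding domain. The AP2 type mostly acts in development, with AP2 itself known for floral organ identity and the AINTEGUMENTA (ANT) and AIL proteins for meristem activity and organ growth. DREB proteins bind the dehydration-responsive element in front of cold and drought genes, whereas ERF proteins typically bind the GCC box of ethylene and defence genes. Ethylene is made from ACC by ACC oxidase (ACO), it is perceived by receptors such as ETR2, and the signal passes through EIN3 and EIL1 to ERF genes. The roles given below were worked out in Arabidopsis unless another plant is named.

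Counts per library ran from 30399492 to 49421130, and the members together took between 0.0566% of the counts (leaf replicate 2) and 0.588% (fruit replicate 1). Organ identity was checked on single defining genes. RBCS (comp23363_c0), a subunit of the carbon-fixing enzyme Rubisco, stood at 31520 and 31350 normalised CPM (counts scaled to each library's size by TMM) in leaf and at no more than 2521 elsewhere. The petal and stamen gene GLO (comp18082_c0) stood at 1007 and 763.7 in flower and at or below 0.0513 elsewhere. The ovule gene AGL11 (comp4517_c0) stood at 33.3 and 41.9 in fruit, and the root gene AGL12 (comp3886_c0) at 10.9 and 16.01 in root against at most 3.95 elsewhere. The 13 IDs of the whole root list did not follow AGL12, since they summed to 54.8 and 137 in root and to 517 and 289.9 in leaf, where PHT1-4 (comp19941_c0), a phosphate transporter, stood at 505 and 281.5. A pair of libraries stood apart. In flower replicate 2, IDs named TAR1-A took 41.4% of the counts, against 1.77% to 18.9% in the others. In fruit replicate 2, the seed oleosin gene OLE1 (comp23438_c0) stood at 4744 normalised CPM against 5.07 in fruit replicate 1, and the 10 IDs of the seed storage list summed to 5385 against 131.8. Of the members, 7 had too few counts to be tested and 73 were tested, 7 of the AP2, 29 of the DREB and 37 of the ERF type. A difference between a pair of organs was called where edgeR's quasi-likelihood test gave an adjusted p under 0.05 (Benjamini-Hochberg, with all 27939 tested genes) and levels differed by 1 log2 unit or more. Comparisons that share an organ share its libraries, and their p-values measure only the spread between these samples.

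Young fruit held the most ERF-type transcript, and the AP2 type was not highest there. Summed over the 40 ERF-type IDs, levels were 3663 and 2003 normalised CPM in fruit replicates 1 and 2, 966 and 777 in root, 440.0 and 274.9 in leaf, and 1256 and 925 in flower. Both fruit libraries lay above all others, and the mean of 2833 ± 1174 (SD, n = 2) in fruit was 7.93 times that of leaf, 3.25 times that of root and 2.60 times that of flower. The 33 DREB-type IDs summed to 203.3 and 405 in root, 259.8 and 203.9 in leaf, 543 and 387 in flower, with 536 and 363 in fruit. Root overlapped every other organ, and flower overlapped fruit. The order of the DREB sums turned on the unit, with means of 464.5 in flower and 449.4 in fruit by normalised CPM, but 350.5 ± 9.41 in flower and 543.8 ± 220.8 in fruit (SD, n = 2) by summed TPM. The 7 AP2-type IDs summed to 74.3 and 79.0 in root, 68.5 and 46.5 in leaf, 77.8 and 113 in flower, with 49.0 and 51.5 in fruit, so fruit lay inside the range of leaf. These sums carry no test. In bulk tissue, fewer cells of a type and less RNA per cell cannot be told apart.

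**Figure D1:**
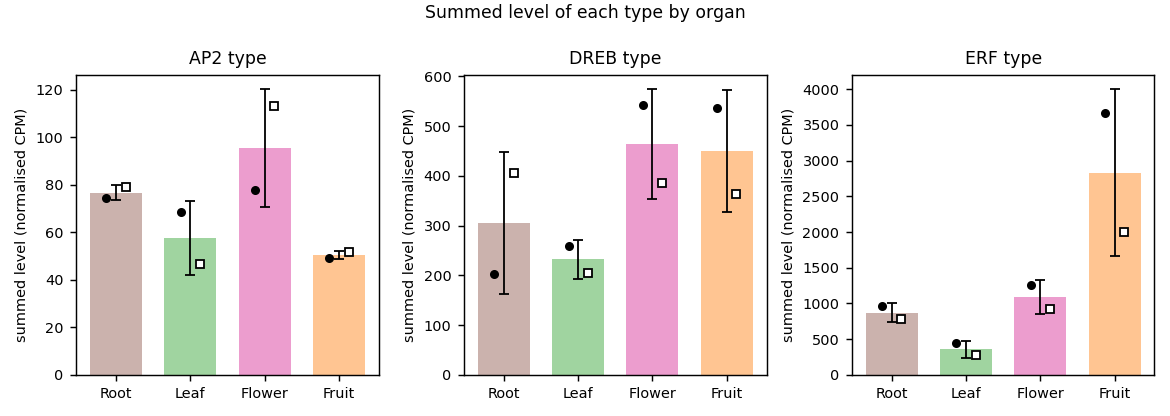
Summed level of the AP2, DREB and ERF types (normalised CPM, linear axis from 0) in each organ; bars are means of 2 libraries, error bars SD, filled circles replicate 1 and open squares replicate 2. The ERF type reached 2833 in fruit and 357 in leaf, whereas the AP2 type ran between 50.3 in fruit and 95.4 in flower.

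By mean level, 37 of the 80 members stood highest in fruit (46.2%), against 19.6% of all 30164 IDs with counts. The other members stood highest in root (17), flower (17) and leaf (9). Among the ERF type 22 of 40 stood highest in fruit, among the DREB type 15 of 33, and among the AP2 type none, 5 of its 7 being highest in root. In 50 of the 80 (62.5%), both libraries of the highest organ lay above every other library, against 46.6% of all IDs with counts. Compared per length, as mean TPM over the 8 libraries, the most abundant members were EREBP1 (comp12574_c0, 220.1 TPM), RAP2-12 (comp21635_c0, 157 TPM) and the ERF5 IDs comp16282_c0 (141 TPM) and comp18033_c0 (91.6 TPM), all of the ERF type. The DREB type was led by RAP2-1 (comp15263_c0, 78.9 TPM) and RAP2-4 (comp24071_c0, 58.2 TPM), and the AP2 type by AP2 (comp18079_c0, 18.6 TPM).

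**Figure D2:**
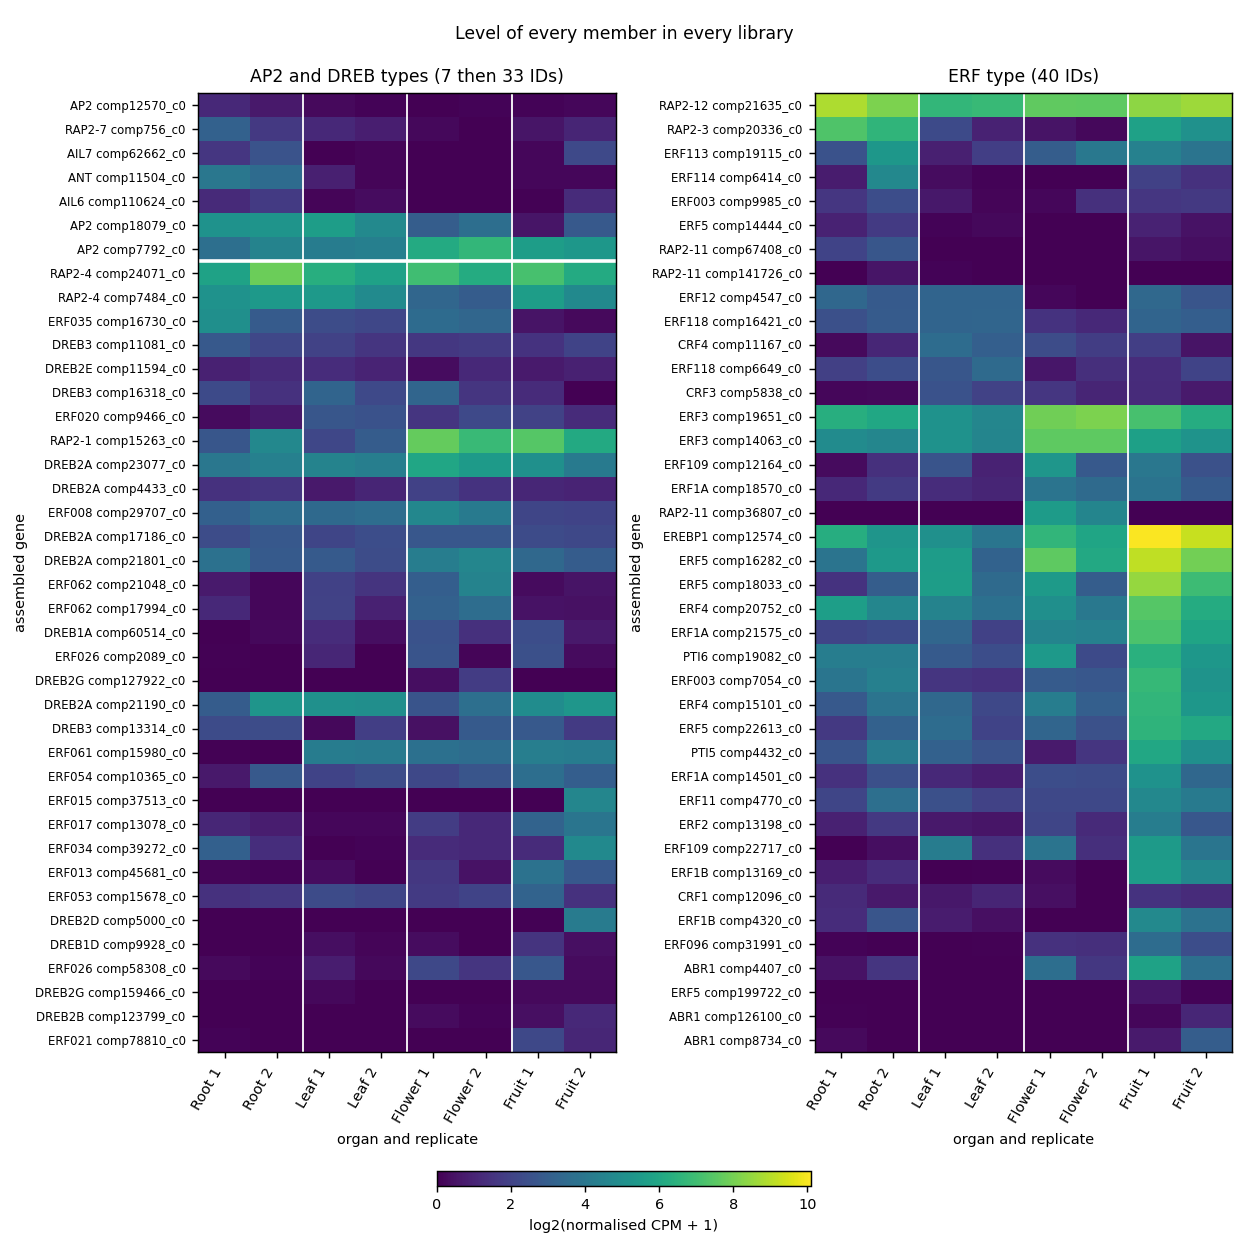
Level of all 80 members in the 8 libraries as log2(normalised CPM + 1), with 1 line per assembled gene, sorted within each type by the organ of the highest mean. The block of ERF-type members highest in fruit is the largest, with EREBP1 at 1040 normalised CPM in fruit replicate 1, and ERF015 and DREB2D appear in fruit replicate 2 alone.

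A difference among the 4 organs was called for 41 of the 73 members tested, against 29.3% of all genes. The ERF type accounted for 27 of these (73.0% of its 37), the DREB type for 12 (41.4% of 29) and the AP2 type for 2 (28.6% of 7). The count was 22 without leaf replicate 1, 17 without leaf replicate 2, 23 without either flower library and 25 without fruit replicate 1. A member was called enriched in an organ where that organ passed against the mean of the other 3 and its fitted level exceeded each of theirs by 1 log2 unit or more. This held for 18 members in fruit (2.80% of all genes), 7 in root (4.68%), 7 in flower (9.94%) and 1 in leaf (7.73%). Of the fruit-enriched members, 15 were of the ERF and 3 of the DREB type. Without any single library, the share of all genes called enriched in each organ also fell, so the counts below do not concern members alone. The member median in fruit over the mean of the other organs then ran from 1.127 to 2.523 log2 units, against -0.06 to 0.107 over all genes. Fruit-enriched members numbered 10 without root replicate 1, 5 without leaf replicate 1 and likewise without leaf replicate 2, 6 and 3 without flower replicates 1 and 2, and 4 and 7 without fruit replicates 1 and 2. Root-enriched members numbered 3 without either leaf library and 4 without any other single library. Flower-enriched members numbered 4 without leaf replicate 2 or flower replicate 2 and 3 without fruit replicate 2. The leaf-enriched count was 0 without either leaf library or flower replicate 2, and 2 without root replicate 2 or fruit replicate 1.

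**Figure D3:**
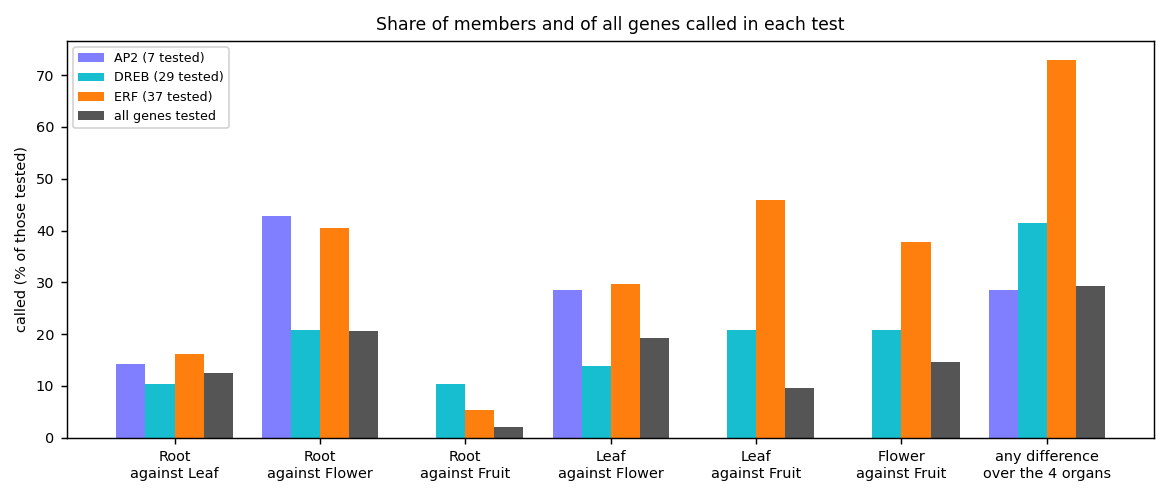
Percentage of tested AP2-type (7), DREB-type (29) and ERF-type (37) members and of all genes tested called in each pairwise comparison and in the test over the 4 organs (edgeR, linear axis from 0). In leaf against fruit 45.9% of the ERF type was called beside 9.64% of all genes, and no AP2-type member was called in any comparison with fruit.

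Among the AP2 type, ANT was higher in root than in leaf and flower, and AP2 comp7792_c0 was higher in flower than in root and leaf. ANT (comp11504_c0), which prolongs cell division in growing organs, stood at 15.0 and 10.6 normalised CPM in root, 0.839 and 0.0868 in leaf, 0 and 0 in flower, with 0.146 and 0.146 in fruit. Both root libraries lay above every other library, and ANT was called root-enriched (edgeR adjusted p = 0.0076), also without each single library. In root it was 27.5-fold higher than in leaf (SE 1.12 on the log2 scale, adjusted p = 0.047) and at least 201.9-fold higher than in flower (adjusted p = 0.0118), the latter set against 3 counts over both flower libraries. The call against leaf was lost without any single library except leaf replicate 1, and that against flower without flower replicate 1. AIL6 (comp110624_c0), a paralog of ANT known from shoot meristems and flowers, stood at 1.29 and 2.32 in root, 0.0292 and 1.34 in fruit, 0.110 and 0.261 in leaf and 0 in both flower libraries. AIL7 (comp62662_c0), of the same group, stood at 2.04 and 4.97 in root, 0.117 and 3.65 in fruit, 0 and 0.109 in leaf and 0 in flower. For both AIL genes fruit replicate 2 was the high fruit library. No difference between organs was called for them, although the root level of AIL7 was at least 58.2 times that of flower, against 3 counts over both flower libraries. By edgeR no AP2-type member was enriched in leaf, flower or fruit, and DESeq2 and limma called 0 in each. At an unadjusted p under 0.05, 1 of 7 was higher in leaf than the mean of the other organs and 1 lower, 1 was higher in flower and 4 lower, and 1 was higher in fruit and 1 lower.

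The AP2-type members named for the flowering regulators AP2 and RAP2-7 were highest in different organs. AP2 comp7792_c0 stood at 12 and 21.7 normalised CPM in root, 18.1 and 19.3 in leaf, 70.6 and 101.2 in flower, with 47.7 and 39.1 in fruit. Flower lay above all other libraries and fruit above root and leaf. In flower it was 5.09-fold higher than in root (SE 0.39, adjusted p = 0.0112) and 4.599-fold higher than in leaf (SE 0.39, adjusted p = 0.0119), while flower and fruit were not called apart. The call against root was lost without flower replicate 2, under total-count scaling and on log2(TPM + 1), and that against leaf without either leaf library or flower replicate 2 and on log2(TPM + 1). AP2 comp18079_c0, of the same symbol, stood at 34.9 and 36.6 in root, 48.1 and 25.8 in leaf, 6.95 and 11.7 in flower, with 0.468 and 6.07 in fruit. Its root and leaf libraries lay above its flower and fruit libraries, but no difference passed the test (adjusted p = 0.0967 over the 4 organs). AP2 is the gene that sets sepal and petal identity. Flower and fruit lay above root and leaf in comp7792_c0 and below them in comp18079_c0, where no difference was called. In both IDs flower lay above fruit. RAP2-7 (comp756_c0), also known as TOE1, which delays flowering, stood at 7.87 and 2.22 in root, 1.24 and 0.825 in leaf, 0.165 and 0 in flower, with 0.468 and 1.05 in fruit. It was root-enriched by 3.59 ± 0.81 log2 units (adjusted p = 0.0339), a call lost without either library of root, leaf or fruit and without flower replicate 2, and it was 53.4-fold higher in root than in flower (SE 1.36, adjusted p = 0.03), a call lost without any single library except root replicate 2. The short AP2 fragment comp12570_c0, of 281 bases, stood at 1.25 and 0.615 in root and at most 0.199 elsewhere, and its root enrichment (3.71 ± 0.93 log2 units, adjusted p = 0.0465) was lost without any single library.

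**Figure D4:**
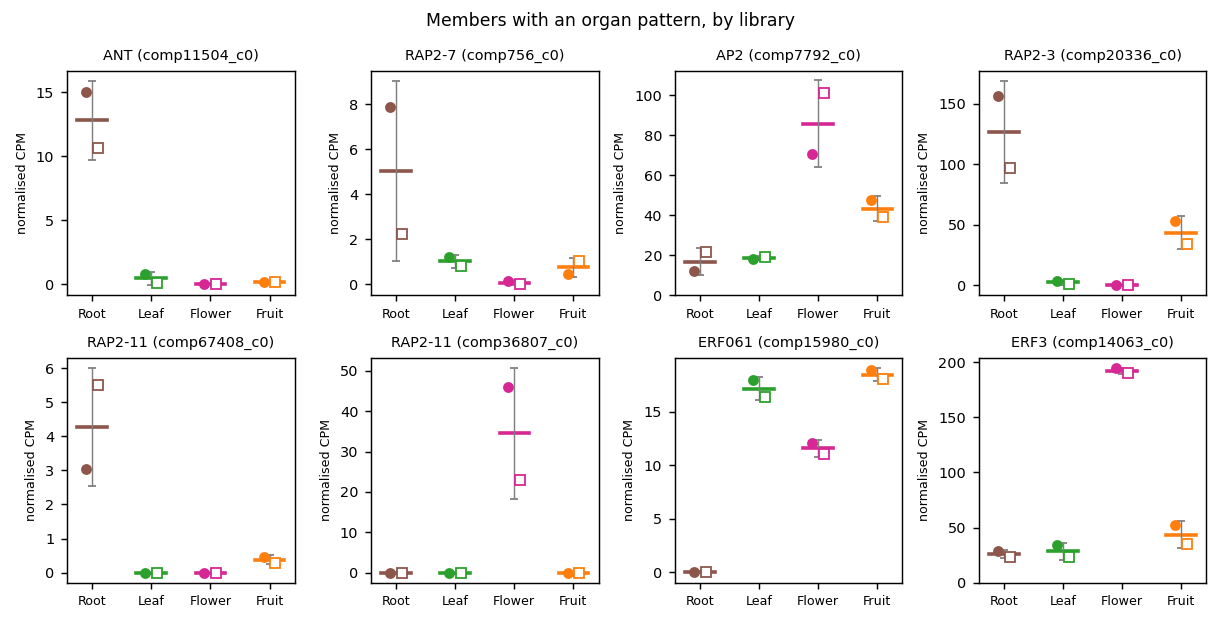
Levels (normalised CPM, linear axis) of 8 members in each organ; thick lines are means of 2 libraries, thin bars SD, filled circles replicate 1 and open squares replicate 2. ANT, RAP2-7, RAP2-3 and RAP2-11 comp67408_c0 were highest in root, AP2 comp7792_c0, RAP2-11 comp36807_c0 and ERF3 comp14063_c0 in flower, and ERF061 stood at or below 0.0405 in root.

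Of the 29 tested members of the DREB type, 4 were flower-enriched (13.8%, against 9.94% of all genes). In fruit 3 were enriched (10.3%, against 2.80%), and edgeR called none root- or leaf-enriched. At an unadjusted p under 0.05, 2 of 29 were higher in root than the mean of the other organs and 7 lower, and 2 were higher in leaf and 5 lower. DESeq2 called 0 and 0 enriched in root and leaf, and limma 2 and 0. Of the 12 calls over the 4 organs, 9 came from the 14 tested members with ERF numbers in the DREB range, 2 from the 3 RAP2 names of this type and 1, DREB2B, from the 7 tested DREB2 names, whose best-known member DREB2A activates drought and heat genes. These name groups were drawn after values were seen and serve as a description only.

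Root nearly lacked 1 DREB-type transcript that every other organ held. ERF061 (comp15980_c0) stood at 0.0405 and 0 normalised CPM in root, 17.9 and 16.4 in leaf, 12.1 and 11.02 in flower, with 18.9 and 18.0 in fruit. Both root libraries lay far below the other 6, which stayed within a narrow band. On 2 counts in root, the level in leaf was 925 times that in root (exact counting interval 256 to 7642), in flower 631 times (174 to 5225) and in fruit 1002 times (277 to 8276). The edgeR adjusted p was 0.00196, 0.00362 and 0.0127 in turn, and the call against fruit alone was lost without either leaf library. ERF035 (comp16730_c0) was lowest in fruit, with 32.0 and 6.56 in root, 4.04 and 3.41 in leaf, 10.7 and 8.98 in flower, with 0.453 and 0.195 in fruit. Both fruit libraries lay below every other library. It was 58.1-fold higher in root than in fruit (SE 0.92, adjusted p = 0.0356) and 29.7-fold higher in flower than in fruit (SE 0.88, adjusted p = 0.0177). The difference from root was lost without root replicate 1 or any library of the other organs, and that from flower without any flower or fruit library.

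In flower, the DREB-type calls were the ERF062 and DREB2A names. ERF062 comp21048_c0 stood at 7.08 and 22.1 normalised CPM in flower, 2.85 and 1.84 in leaf, 0.668 and 0.120 in root, and 0.219 and 0.439 in fruit. ERF062 comp17994_c0 stood at 7.74 and 11.1 in flower, 2.96 and 0.890 in leaf, 1.25 and 0.137 in root, and 0.409 and 0.365 in fruit. In both IDs flower lay above leaf and leaf above fruit, and they were flower-enriched by 4.44 ± 0.68 (adjusted p = 0.00578) and 3.54 ± 0.75 log2 units (adjusted p = 0.0172). The first call was lost without flower replicate 2, and the second without leaf replicate 2 or any flower or fruit library. DREB2A comp23077_c0 stood at 62.6 and 44.5 in flower and between 15.1 and 32.4 elsewhere, an enrichment of 1.37 ± 0.30 log2 units (adjusted p = 0.02). DREB2A comp21801_c0 stood at 18.6 and 24.2 in flower and between 4.06 and 12.7 elsewhere, an enrichment of 1.53 ± 0.36 log2 units (adjusted p = 0.0237). Both DREB2A calls were lost under total-count scaling, on log2(TPM + 1), and without leaf replicate 2, either flower library or fruit replicate 2. That of comp23077_c0 was also lost without leaf replicate 1, and that of comp21801_c0 without root replicate 2 or fruit replicate 1. The other highly expressed DREB2A ID, comp21190_c0, stood at 6.74 and 37.8 in root, 32.6 and 31.2 in leaf, 5.17 and 11.9 in flower, and in fruit 29.5 and 38.4, and no difference was called.

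RAP2-1 (comp15263_c0), which represses stress genes that DREB proteins activate, was high in flower and fruit and low in leaf. It stood at 211 and 115 normalised CPM in flower, 172 and 68.8 in fruit, 5.54 and 25.5 in root, and 3.49 and 6.64 in leaf. All flower and fruit libraries lay above all root and leaf libraries. It was 32.2-fold higher in flower than in leaf (SE 0.94, adjusted p = 0.0142), 23.7-fold higher in fruit than in leaf (SE 0.92, adjusted p = 0.0281) and 10.5-fold higher in flower than in root (SE 0.87, adjusted p = 0.0371), while root and fruit were not called apart. The call of flower over leaf was lost without either leaf library or flower replicate 1, that of fruit over leaf without any library of leaf, flower or fruit, and that of flower over root without any single library except root replicate 2. RAP2-4 comp24071_c0, known from light and ethylene responses, stood at 55.1 and 226.0 in root, 80.3 and 54.5 in leaf, 126 and 73.4 in flower, with 140.3 and 71.3 in fruit. Its organs overlapped and no difference was called. RAP2-4 comp7484_c0, chosen after its values were seen, stood at 9.06 and 6.72 in flower and between 26.6 and 48.4 in the other 6 libraries, and its flower level was called lower than that of root, leaf and fruit. All 3 calls were lost without either flower library, that of root also without root replicate 2, that of leaf without either leaf library and that of fruit without fruit replicate 1.

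The fruit-enriched DREB-type members were ERF017, ERF013 and ERF021, for which no role is stated here. ERF017 (comp13078_c0) stood at 8.25 and 14.1 normalised CPM in fruit, 2.44 and 1.24 in flower, 1.09 and 0.769 in root, and 0.132 and 0.130 in leaf. Its organs did not overlap, with fruit highest and leaf lowest, and its enrichment in fruit of 4.18 ± 0.42 log2 units (adjusted p = 0.0074) was lost without fruit replicate 2. ERF013 (comp45681_c0) stood at 12.8 and 5.82 in fruit, 2.08 and 0.396 in flower, and at or below 0.265 in root and leaf, an enrichment of 5.21 ± 0.84 log2 units (adjusted p = 0.0236). ERF021 (comp78810_c0) stood at 3.62 and 1.12 in fruit and was at 0 in 5 of the other 6 libraries, with 0.0809 in root replicate 1 (adjusted p = 0.0426). The calls for ERF013 and ERF021 were lost without any single library. ERF008 (comp29707_c0) stood lowest in fruit, at 3.30 and 3.12, against 24.4 and 16.8 in flower, 9.96 and 11.1 in leaf and 7.51 and 11.3 in root. It was 6.42-fold higher in flower than in fruit (SE 0.40, adjusted p = 0.0108) and 3.28-fold higher in leaf than in fruit (SE 0.38, adjusted p = 0.0386). The call against leaf was lost without any library of leaf, flower or fruit, and that of flower over fruit without flower replicate 1 or either fruit library.

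In the ERF type, 15 of 37 members were fruit-enriched (40.5%, against 2.80% of all genes). In all 15, both fruit libraries lay above every other library, with fruit levels between 4.24 and 1040 normalised CPM and other levels between 0 and 100.2. Selection for enrichment in fruit makes this order likely, so it adds no support. All 15 were also higher in fruit replicate 1 than in replicate 2, as were 32 of the 37 tested. So were 22 of the 29 tested of the DREB type, but 1 of 7 of the AP2 type, and the share over all genes was not counted. Fruit replicate 1 was the library with the low level of the seed oleosin gene OLE1, and a link of these levels with seed content was not tested. The count of 15 was 9 without root replicate 1, 4 without leaf replicate 1 or leaf replicate 2, 5 and 2 without flower replicates 1 and 2, and 3 and 7 without fruit replicates 1 and 2. In leaf against fruit, the ERF-type median was -3.06 log2 units, against -0.43 in the DREB type, 0.38 in the AP2 type and 0.01 over all genes. These medians were the same with members at 0 in 1 organ set to their bound.

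**Figure D5:**
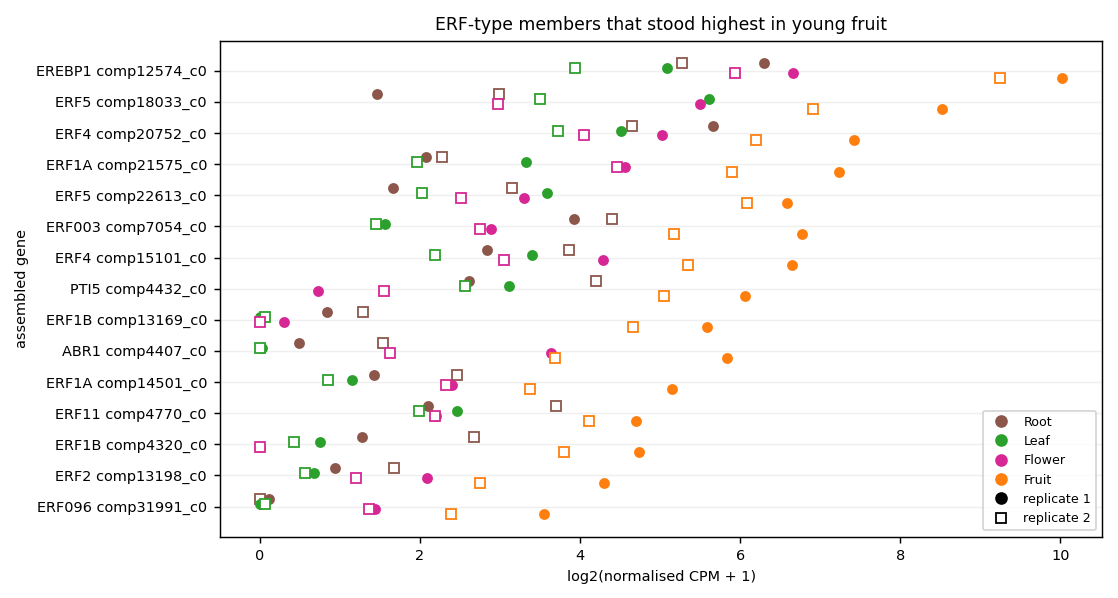
Levels of the 15 fruit-enriched ERF-type members in the 8 libraries, as log2(normalised CPM + 1); colours mark organs, filled circles replicate 1 and open squares replicate 2. In each gene both fruit points lie to the right of all others, and fruit replicate 1 lies to the right of replicate 2.

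EREBP1 was the most abundant of them. EREBP1 (comp12574_c0), an ERF name for which no role is stated here, stood at 1040 and 606.8 normalised CPM in fruit, 100.2 and 60.5 in flower, 77.9 and 37.8 in root, and 32.8 and 14.4 in leaf. Its enrichment in fruit was 4.10 ± 0.44 log2 units (adjusted p = 0.00811), lost without flower replicate 2. Fruit was 34.9-fold higher than leaf (SE 0.71, adjusted p = 0.011), 14.2-fold higher than root (SE 0.67, adjusted p = 0.0449) and 10.2-fold higher than flower (SE 0.65, adjusted p = 0.0216). The call over root was lost without any single library, that over leaf without either leaf library or fruit replicate 2, and that over flower without any flower or fruit library. Both fruit libraries lay above every other library. ERF003 comp7054_c0, chosen after its values were seen, stood at 108 and 35.2 in fruit, 14.2 and 20.2 in root, 6.39 and 5.71 in flower, and 1.94 and 1.74 in leaf. Its organs did not overlap, and its enrichment of 3.64 ± 0.38 log2 units (adjusted p = 0.00808) was lost without flower replicate 2.

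Several fruit-enriched ERF genes carried the names of activators of defence genes. The names ERF1A, ERF1B, ERF2, ERF5, ERF096 and PTI5, grouped after values were seen, covered 13 IDs, of which 12 were tested, 11 differed over the 4 organs and 9 were fruit-enriched. The other 6 fruit-enriched ERF-type IDs were EREBP1, ERF003 comp7054_c0, ABR1 comp4407_c0, both ERF4 IDs and ERF11. ERF1B, which joins ethylene and jasmonate signals and activates defensin genes, was low in leaf and flower. ERF1B comp13169_c0 stood at 47.1 and 24.3 normalised CPM in fruit, 0.789 and 1.44 in root, 0 and 0.0434 in leaf, and 0.231 and 0 in flower. On 2 counts in leaf, its fruit level was 1760 times the leaf level (exact counting interval 487 to 14540, adjusted p = 0.0108), and it was 266-fold higher in fruit than in flower (SE 1.28, adjusted p = 0.0126). ERF1B comp4320_c0 stood at 25.6 and 12.96 in fruit, 1.42 and 5.40 in root, 0.684 and 0.347 in leaf and 0 in both flower libraries. It was at least 334.5-fold higher in fruit than in flower (adjusted p = 0.00992), set against 3 counts over both flower libraries. For comp13169_c0 the call against leaf was lost without any leaf or fruit library and that against flower without flower replicate 2 or fruit replicate 1, and for comp4320_c0 the call against flower was lost without flower replicate 1.

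ERF1A, an activator that binds the GCC box, had 3 IDs. ERF1A comp21575_c0 stood at 149 and 58.5 normalised CPM in fruit, 22.6 and 21.0 in flower, 9.03 and 2.89 in leaf, and 3.22 and 3.84 in root. It was fruit-enriched by 3.75 ± 0.46 log2 units (adjusted p = 0.0117), lost without either flower library or fruit replicate 1, and 29.4-fold higher in fruit than in root (SE 0.72, adjusted p = 0.0313), lost without any single library. ERF1A comp14501_c0 stood at 34.6 and 9.33 in fruit and at or below 4.51 elsewhere. ERF1A comp18570_c0 instead stood at 13.9 and 10.11 in flower, 13.5 and 6.16 in fruit and at or below 2.32 elsewhere. These last IDs were chosen after their values were seen, and the symbol thus covered a gene high in fruit alone and a gene high in flower and fruit.

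ERF5, which regulates growth under osmotic stress and defence, had 5 IDs. ERF5 comp18033_c0 stood at 365 and 120 normalised CPM in fruit, 47.7 and 10.3 in leaf, 44.1 and 6.84 in flower, with 1.76 and 6.95 in root. Its replicates in leaf and flower lay more than 4-fold apart, and its enrichment in fruit (4.04 ± 0.85 log2 units, adjusted p = 0.0441) was lost without any single library. ERF5 comp16282_c0 stood at 555 and 244 in fruit, 194 and 67.4 in flower, 46.3 and 8.03 in leaf, and 13.6 and 42.6 in root, and it passed no test (adjusted p = 0.0524 over the 4 organs). ERF5 comp22613_c0, chosen after its values were seen, stood at 95.1 and 67.0 in fruit and at or below 10.97 elsewhere, an enrichment of 3.71 ± 0.58 log2 units (adjusted p = 0.0218), lost without any library of leaf, flower or fruit. The short ID comp14444_c0, of 433 bases, stood at 0.971 and 2.25 in root, 0.935 and 0.390 in fruit, 0.0662 and 0.174 in leaf and 0 in flower, and was called root-enriched (adjusted p = 0.0244). That call was lost without any library but flower replicate 2. The last ID, comp199722_c0, was not tested. Reads may be split between IDs of 1 symbol where their sequences are near-identical.

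PTI5, ERF2 and ERF096, chosen after their values were seen, completed the fruit-enriched members of that group. PTI5 (comp4432_c0), named for a tomato factor that binds the disease resistance kinase Pto, stood at 65.9 and 32.0 normalised CPM in fruit, 5.14 and 17.3 in root, 7.68 and 4.93 in leaf, and 0.659 and 1.92 in flower. It was 38.5-fold higher in fruit than in flower (SE 0.89, adjusted p = 0.0145), lost without either flower library or fruit replicate 1. ERF2 (comp13198_c0), an activator through the GCC box, stood at 18.6 and 5.73 in fruit and at or below 3.26 elsewhere. ERF096 (comp31991_c0), which encodes a small ERF protein, stood at 10.7 and 4.24 in fruit, 1.71 and 1.58 in flower and at or below 0.0809 in root and leaf. All 3 had both fruit libraries above every other library, and their enrichment was lost without any library of leaf, flower or fruit, that of ERF2 also without root replicate 1. ABR1 (comp4407_c0), a repressor of abscisic acid responses, stood at 55.9 and 11.9 in fruit, 11.5 and 2.09 in flower, 0.405 and 1.91 in root, and 0.0221 and 0 in leaf, so that flower replicate 1 came close to fruit replicate 2. On 1 count in leaf, its fruit level was 3597 times the leaf level (exact counting interval 645 to 142100, adjusted p = 0.0163) and its flower level 732 times (131 to 28980, adjusted p = 0.0174). The call for fruit was lost without any leaf or fruit library, and that for flower without either leaf library or flower replicate 1.

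The repressors ERF3, ERF4, ERF11 and ERF12, which carry the EAR motif and silence GCC-box genes, divided between flower and fruit. All 6 of their IDs differed over the 4 organs, 2 being flower-enriched and 3 fruit-enriched. ERF3 comp14063_c0 stood at 194 and 190.1 normalised CPM in flower, 52.4 and 34.99 in fruit, 28.6 and 23.7 in root, and 34.1 and 22.9 in leaf. Flower lay above all other libraries, by 2.59 ± 0.26 log2 units over the mean of the other organs (adjusted p = 0.00152). ERF3 comp19651_c0 stood at 240.3 and 273 in flower, 144 and 74.3 in fruit, 80.7 and 62.98 in root, and 34.8 and 23.8 in leaf, an enrichment of 2.07 ± 0.31 log2 units (adjusted p = 0.00567). This second call was lost without fruit replicate 2, under total-count scaling and on log2(TPM + 1), while comp14063_c0 kept its call under all 15 alternatives. ERF4 comp20752_c0 stood at 171 and 72.4 in fruit, 49.7 and 24.2 in root, 31.6 and 15.5 in flower, and 21.8 and 12.3 in leaf, with fruit above all other libraries (2.31 ± 0.45 log2 units, adjusted p = 0.038, lost without any single library). ERF12 (comp4547_c0) had no enriched organ but was low in flower, at 0.132 and 0 against 9.45 and 6.24 in root, 8.54 and 8.596 in leaf, and 9.70 and 5.41 in fruit. It was 108-fold higher in leaf than in flower (SE 0.99, adjusted p = 0.00681), 99.2-fold higher in root (SE 0.99, adjusted p = 0.00829) and 95.6-fold higher in fruit (SE 0.99, adjusted p = 0.0112).

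RAP2-3, of the group that senses oxygen through its N-terminus and turns on hypoxia genes, stood highest in root. In RAP2-12, of the same group, the root and fruit libraries overlapped. RAP2-3 (comp20336_c0) stood at 157 and 97.2 normalised CPM in root, 53.4 and 33.9 in fruit, 3.86 and 0.933 in leaf, and 0.428 and 0.169 in flower. The organs did not overlap at all, in the order root, fruit, leaf and flower. It was root-enriched by 5.30 ± 0.53 log2 units (adjusted p = 0.00366), a call kept without each single library. It was 401-fold higher in root than in flower (SE 0.97, adjusted p = 0.00446), 138.0-fold higher in fruit than in flower (SE 0.92, adjusted p = 0.00834) and 52.9-fold higher in root than in leaf (SE 0.83, adjusted p = 0.00711), and root and fruit were not called apart. Of these, the call of fruit over flower was lost without either flower library, and the others were kept without each single library. Leaf stood 7.59-fold above flower (SE 0.81, adjusted p = 0.0464), a difference that was lost without any single library except leaf replicate 2. RAP2-12 (comp21635_c0) was abundant everywhere, at 468 and 273 in root, 337 and 392 in fruit, 199 and 190.1 in flower, and 101.0 and 111 in leaf. Leaf lay below all other libraries, and root was 3.49-fold (SE 0.39, adjusted p = 0.0301) and fruit 3.43-fold higher than leaf (SE 0.39, adjusted p = 0.0377). The call of root was lost without any single library except root replicate 2, and that of fruit without any library of leaf, flower or fruit.

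Of the 3 IDs named RAP2-11, after an activator of potassium uptake in roots, 2 stood highest in root and 1 in flower. RAP2-11 comp67408_c0 stood at 3.06 and 5.5 normalised CPM in root, 0.468 and 0.292 in fruit, and 0 in all leaf and flower libraries. It was root-enriched (adjusted p = 0.0076) and at least 133-fold higher in root than in leaf (adjusted p = 0.0111), set against 3 counts over both leaf libraries, the latter call being lost without root replicate 2 or either leaf library. RAP2-11 comp36807_c0 stood at 46.0 and 23.0 in flower and at 0 in all other 6 libraries. It was at least 1350-fold higher in flower than in root (adjusted p = 0.00796), at least 1143-fold higher than in leaf (adjusted p = 0.00692) and at least 1370-fold higher than in fruit (adjusted p = 0.0105), each against 3 counts over the organ. The calls against root and leaf were lost without flower replicate 1 and that against fruit without either flower library, whereas both enrichments were kept under all 15 alternatives. The third ID, comp141726_c0, held 0.478 in root replicate 2 and at most 0.0662 elsewhere and was not tested.

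ERF114 (comp6414_c0), known for promoting the outgrowth of buds, was called root-enriched (adjusted p = 0.0281) on replicates that disagreed, and the call was kept in 5 of 15 alternatives. It stood at 0.688 and 24.96 normalised CPM in root, 2.91 and 1.73 in fruit, 0.265 and 0.0651 in leaf and 0 in flower. Root overlapped fruit, and ERF114 was the single enriched member whose highest organ overlapped another. Against flower it was at least 222-fold higher in root (adjusted p = 0.035), but both calls were lost without root replicate 2, without any library of the other organs, and on log2(TPM + 1). Among the cytokinin response names CRF and PTI6 with ERF118, 2 of 6 differed over the 4 organs. CRF3 (comp5838_c0), a cytokinin response factor, was the only leaf-enriched member (2.63 ± 0.51 log2 units, adjusted p = 0.0158, lost without either leaf library or flower replicate 2), at 4.81 and 2.97 in leaf, 2.01 and 1.07 in flower, 1.34 and 0.658 in fruit, and 0.142 and 0.171 in root. It was 24.5-fold higher in leaf than in root (SE 0.79, adjusted p = 0.0128), lost without any root or leaf library.

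Root and leaf differed in 10 members, 7 higher in root and 3 higher in leaf (12.4% of all genes called, 4.45% higher and 7.92% lower in root). The higher ones were ANT, the DREB-type ERF017 and 5 ERF-type genes, RAP2-11 comp67408_c0, RAP2-3, ERF1B comp13169_c0, ERF003 comp7054_c0 and RAP2-12. The lower ones were ERF061, ERF020 and CRF3. The member median was 0.59 log2 units (0.50 with members at 0 in 1 organ set to their bound), against 0.09 over all genes. Total-count scaling without the 20 highest IDs shifted the all-gene median to 0.54, and under it the split was 10 higher and 2 lower. The count was 6, 4, 3 and 2 without root replicates 1 and 2 and leaf replicates 1 and 2, and 6 without fruit replicate 2.

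Root and flower differed in 24 members, 11 higher in root and 13 higher in flower (20.6% of all genes called, 9.39% higher and 11.2% lower in root). The members higher in root included ANT, RAP2-7, RAP2-3, ERF12, PTI5 and ERF1B comp4320_c0, and those higher in flower included AP2 comp7792_c0, both ERF3 IDs, RAP2-1, ERF061 and ERF096. The ERF type gave 15 of the calls, the DREB type 6 and the AP2 type 3. The balance depended on the scaling. Under total-count scaling without the 20 highest IDs, where the all-gene median was 0.88 log2 units in place of 0.17, 16 members were higher and 4 lower in root, and on log2(TPM + 1) 17 were higher and 6 lower. The member median lay below the all-gene median in each, at -0.39 against 0.17 under TMM scaling (-0.41 with bounds). It was 0.44 against 0.88 under total-count scaling, and 0.29 against 0.786 on log2(TPM + 1). The count was 14 and 10 without root replicates 1 and 2, 14 and 13 without leaf replicates 1 and 2, and 6 and 9 without flower replicates 1 and 2.

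Root and fruit differed in 5 members by edgeR, 1 higher in root and 4 higher in fruit (2.06% of all genes called, 0.816% higher and 1.24% lower in root). ERF035 was higher in root, and ERF061, ERF017, ERF1A comp21575_c0 and EREBP1 were higher in fruit. No AP2-type member was called by edgeR, while at an unadjusted p under 0.05 there were 4 higher in root and 1 lower, and DESeq2 and limma each called 3. DESeq2 called 32 members (43.8%, against 11.7% of all genes), and limma on log2(TPM + 1) 15 (20.5%, against 5.67%), of which 5 were higher in root and 10 lower. At an unadjusted p under 0.05, 37 of 73 members differed between root and fruit, against 5073 of all 27939 genes tested. Between root and leaf these counts were 24 members and 7553 genes. The adjusted edgeR count was 2 without root replicate 2, 0 without either leaf library and 1 without any other single library.

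Leaf and flower differed in 17 members, 7 higher in leaf and 10 higher in flower (19.3% of all genes called, 10.0% higher and 9.32% lower in leaf). Higher in leaf were ANT, RAP2-4 comp7484_c0, both ERF118 IDs, RAP2-3, ERF12 and ERF1B comp4320_c0. Higher in flower were AP2 comp7792_c0, the DREB-type RAP2-1, ERF017 and DREB2A comp21801_c0, and 6 ERF-type IDs with the names RAP2-11, ABR1, ERF096, ERF1A and ERF3. ANT and ERF1B comp4320_c0 were at 0 in flower and stood at or below 0.839 in leaf. The count was 4 without either leaf library, and 6 and 9 without flower replicates 1 and 2.

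Leaf and fruit differed in 23 members, 2 higher in leaf and 21 higher in fruit (9.64% of all genes called, 6.05% higher and 3.59% lower in leaf). All 17 ERF-type calls were higher in fruit, and that held under both other count scalings, with 17 of 17 each. The DREB type gave 6 calls, ERF034, ERF017, ERF013 and RAP2-1 being higher in fruit and ERF008 and ERF035 higher in leaf, both lost without any library of leaf, flower or fruit. No AP2-type member was called by edgeR, while at an unadjusted p under 0.05 there was 1 higher in leaf and 1 lower, and DESeq2 called 2 and limma 1. Total-count scaling without the 20 highest IDs gave an all-gene median of -0.36 and a member median of -2.22, against 0.01 and -1.86. The share of all genes called also fell without any single library. The member median was -2.955 and -1.843 without leaf replicates 1 and 2, and -0.965 and -2.216 without fruit replicates 1 and 2. The count of members was 0 without either leaf library, 13 and 11 without flower replicates 1 and 2, and 4 and 2 without fruit replicates 1 and 2.

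Flower and fruit differed in 20 members, 6 higher in flower and 14 higher in fruit (14.7% of all genes called, 8.06% higher and 6.65% lower in flower). Higher in flower were RAP2-11 comp36807_c0, ERF3 comp14063_c0, both ERF062 IDs, ERF008 and ERF035. Among the 12 ERF-type members higher in fruit were both ERF1B IDs, RAP2-3, ERF12, PTI5, EREBP1 and ERF11, and the DREB-type ones were ERF017 and RAP2-4 comp7484_c0. The all-gene median was -0.16 log2 units, and -0.83 under total-count scaling without the 20 highest IDs. On log2(TPM + 1), 5 were higher in flower and 22 higher in fruit. No AP2-type member was called by edgeR, while at an unadjusted p under 0.05 there was 1 higher in flower and 4 lower, and DESeq2 called 2 and limma 0. The count was 13 without either leaf library, 2 and 3 without flower replicates 1 and 2, and 5 and 9 without fruit replicates 1 and 2. In all 6 comparisons, the libraries of the 2 organs did not overlap for any member called. With 2 libraries per organ a call nearly requires this, so it adds no support.

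Genes of ethylene synthesis and signalling, taken by symbol, were read beside the members. In perception and signalling, 6 of 18 genes differed over the 4 organs, a share close to the 29.3% of all genes. Of the 18, 5 were lower in leaf than in fruit (3.59% of all genes) and 6 lower in flower than in fruit (6.65%). The receptor gene ETR2 (comp24907_c0) stood at 362 and 280.1 normalised CPM in fruit, 6.98 and 31.4 in root, 6.26 and 9.44 in flower, and 1.90 and 3.52 in leaf. EBF1 (comp19865_c0), an F-box protein that degrades EIN3, stood at 275 and 223 in fruit, 15.6 and 31.9 in root, 27.1 and 42.7 in flower, and 3.71 and 12.3 in leaf. In both genes, chosen after their values were seen, fruit lay above all other libraries. Others of the 18 went the other way. EIN2 (comp15643_c0) stood at 97.7 and 91.6 in root and 53.5 and 45.9 in fruit, and the receptor gene ERS1 (comp14051_c0) at 73.9 and 52.75 in root and 28.2 and 33.96 in fruit. In EBF1 comp16294_c0 fruit (154.6 and 159.5) lay nearer to root (141 and 97.7). EIN3 (comp22038_c0), the factor that activates ERF1, stood at 57.8 and 47.3 in fruit, 52.6 and 77.9 in root, 15.98 and 13.98 in leaf, and 21.3 and 15.3 in flower, so that root and fruit overlapped and both lay above leaf and flower. In ethylene synthesis, 6 of 19 genes tested differed over the 4 organs, again close to the share of all genes, and 2 were lower and 1 higher in leaf than in fruit. The ACC oxidase ID ACO1 comp8878_c0 stood at 19.8 and 14.3 in fruit, 0.830 and 0.752 in root, 0 and 0.0434 in leaf and 0 in flower, whereas ACO3 comp22929_c0, chosen after its values were seen, overlapped between fruit (1644 and 928.5), leaf (1222 and 802.8) and flower (716 and 2114). These values stand side by side with those of the members, and no relation between them was tested.

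Genes of cold and water deficit, taken by symbol, were read beside the DREB type. DREB proteins are known to activate some genes of this kind, but not every listed gene is a known target. Whether any member acts on these IDs was not tested. Of 15 tested, 9 differed over the 4 organs (29.3% of all genes), and 7 were lower and 1 higher in root than in flower (11.2% and 9.39% of all genes), the comparison that also had the most calls over all genes. RD22 (comp20145_c0), a dehydration-responsive gene, stood at a mean of 0.126 normalised CPM in root, 2158 in leaf, 231 in flower and 13.1 in fruit. Its root level was called below that of each other organ, but the other RD22 IDs did not show this order. For RD22 comp20952_c0, root (45.6, 181.4) overlapped leaf (134.7, 788.9), flower (23.5, 47.4) and fruit (5.30, 3666). RD22 comp24985_c0 was at 0 outside fruit replicate 2. DHN1 comp19623_c0 went the opposite way, its root mean of 31.1 being called above leaf (mean 0) and flower (mean 0.0165). Against leaf, 3 of the 15 genes were higher in root and 2 lower. COR413PM2 (comp8087_c0), a cold-regulated membrane protein, stood at 1228 and 1244 in flower, against 23.2 and 26.8 in root, 111 and 49.1 in leaf, and 70.0 and 27.4 in fruit. The list of GCC-box defence names gave 5 of 7 genes over the 4 organs, but by their descriptions it held CHI1, a chalcone isomerase, and PDF1A and PDF1B, peptide deformylases, and it is not read as a defence list.

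Replicates of the members were more than 4-fold apart in a larger share than those of all genes tested, with no test of that difference. The member share took in all 80 IDs, untested ones such as ERF015 included, so the sets are unlike. Among members at 1 normalised CPM or more, 16 of 67 (23.9%) had fruit replicates more than 4-fold apart, against 8.37% of genes tested at that level. The shares were 20.7% against 14.2% in root, 15.7% against 8.61% in leaf and 21.1% against 13.3% in flower. Some DREB-type and ABR1 members stood highest in fruit replicate 2, the library with the seed oleosin transcripts. ERF015 (comp37513_c0) stood at 23.6 there and at 0 in the other 7 libraries, DREB2D (comp5000_c0) at 17.6 against at most 0.0292, and ERF034 (comp39272_c0) at 26.4 against 7.45 in root replicate 1 and at most 1.52 elsewhere. ABR1 comp8734_c0 stood at 6.89 against at most 0.672, and DREB2B (comp123799_c0) at 1.27 against at most 0.336. ERF015 and DREB2D were not tested, since too few libraries held counts, and the part of the seed transcripts in these levels was not tested.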

How the data were processed

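Poly(A) RNA from 2 libraries each of root, leaf, flower and fruit was sequenced as paired ends, per the labels' protocols. The deposited table gave, per the file headers, estimated counts per assembled gene and library, together with gene lengths, TPM (per length and library) and RPKM values. The assembler, aligner, counter and use of strand were not given in the sources used here, so antisense or near-identical IDs may share reads, and gene symbols were transferred from other plants. RPKM was not used.

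The estimated counts were rounded to whole numbers, because edgeR needs counts. One edgeR 4.0.16 quasi-likelihood model (R 4.3.3) with organ as its only term was fitted over the 8 libraries after TMM scaling and filterByExpr, which kept 27939 of 30177 genes. All p-values were adjusted by Benjamini-Hochberg over all genes tested. Levels within a gene were given as TMM-normalised CPM and levels between genes as TPM. With 2 libraries per organ and 4 residual degrees of freedom, precision rests on a common spread. Counting intervals are exact, at 95% confidence, and they and the floor of 3 counts cover counting error only. The test was tried first on simulated counts, which had a smaller spread than these data and large changes planted only in well-expressed genes. That trial therefore does not measure how well the test performs here.

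DREB names were DREB, TINY, RAP2-1, RAP2-4, RAP2-9, RAP2-10, RAP2-13 and 3-digit ERF numbers from 6 to 62, AP2 names were AP2, ANT, AIL, BBM, TOE and RAP2-7, and all others were ERF names. Genes were named by rule: every AP2-type member, up to 4 enriched DREB- or ERF-type members per organ with the highest TPM, the 4 highest TPM per type, and up to 2 called members per direction and comparison with the largest fold and at least 1 TPM in the higher organ. The rule gave 38 members, and others named were chosen after their values were seen. Members and lists were chosen with earlier results of these data known. Alternatives were RLE and total-count scaling (without the 20 highest IDs), no filter, DESeq2 1.42.0, limma 3.58.1 on log2(TPM + 1) and log2(TPM + 0.1), a replicate block, each library left out and, added after seeing the data, flower and fruit replicates 2 both left out.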

Additional observations from a re-analysis of the deposited data

How the results depend on the processing

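Counts of members called ran over these ranges when each library was left out in turn: 2 to 8 for root against leaf, 6 to 21 for root against flower, 0 to 2 for root against fruit, 4 to 15 for leaf against flower, 0 to 21 for leaf against fruit, 2 to 20 for flower against fruit, 17 to 37 for any difference over the 4 organs, and 3 to 4, 0 to 2, 3 to 8 and 3 to 15 for members enriched in root, leaf, flower and fruit. With a single library left in an organ, its spread was assumed to be that of the others. The share of all genes called also fell in every such fit, except in root against fruit without root replicate 2. Leaving out flower and fruit replicates 2 together, chosen after seeing the data, left 1 library in each of these organs. Calls then fell in every test, among all genes as well as among members, so their counts are not read as a result about members. The member median was -1.854 log2 units in root against fruit and -2.405 in leaf against fruit, with 0 over all genes in each. In flower against fruit it was -1.936, against -0.167 over all genes. DESeq2 called 22 in root against leaf, 32 in root against fruit, 29 in leaf against flower, 35 in leaf against fruit, 35 in flower against fruit and 3 enriched in leaf. On log2(TPM + 1), limma called 15 in root against fruit, 11 in leaf against flower and 4 enriched in flower, and total-count scaling gave 4 enriched in flower. With a replicate block, members enriched in leaf numbered 2, and the other counts were within 1.5 times those reported (9, 25, 5, 17, 19, 18 and 40, with 6, 7 and 16 enriched in root, flower and fruit). Libraries of equal number deviated together among the organs sampled at blossom (r of their deviations 0.442 for root and leaf, 0.388 for root and flower, 0.49 for leaf and flower) but not with fruit (-0.183, 0.073 and -0.028 for root, leaf and flower), a hint from the data that the labels do not state, and the block was kept as an alternative. Of the 77 counts under alternatives that keep all libraries or leave out both second ones, 55 stayed within 1.5 times. Of 368 values for the 23 named comparisons of single members, 261 kept their call, 107 kept their direction without the call and 0 changed direction. The causes of these shifts were not tested. Depth limits members below about 1 normalised CPM, where an organ held a few counts.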
